A study of Homo sapiens with 3 samples.

Results

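The genes described here build cholesterol and fatty acids, together with the factors that switch them on. They were listed by function, as 34 gene symbols, with no measured value in the rule, although earlier results of these data were known when the list was made. A gene ID was found for 33 of the 34 among the 56632 IDs of each deposited table. The exception was ACACA, the acetyl-CoA carboxylase that makes malonyl-CoA, which was not matched and is not analysed here. All 33 matched genes were measured, meaning that they reached 1 CPM, a count scaled to the size of its library, in at least 1 library, as did 13312 IDs in all.

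RNA was sequenced in 3 libraries of MCF10Ca1h, an established breast cancer line of the MCF10 series of human mammary epithelial cells. The NT library is of cells without treatment, the GSK484 library of cells that received GSK484 over 72 h, and the CON library of cells that received a control compound over 72 h. The compound GSK484 is an inhibitor of PADI4, which converts arginine to citrulline in histones and other proteins. All cells were grown in DMEM/F12 medium with horse serum, and serum carries lipoprotein cholesterol. The labels' treatment text calls the control compound GSK107, whereas the name on the deposited CON table is GSK106, and neither name is used below. The labels give neither a dose nor a vehicle, and they give NT no time. With 1 library for each group there are no replicates and no test between conditions was possible. Every interval below covers counting error only, and a difference between libraries cannot be told apart from a difference between cultures.

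Cholesterol is made from acetyl-CoA through mevalonate, farnesyl diphosphate, squalene and lanosterol, and fatty acids are made from the same acetyl-CoA by fatty acid synthase and then desaturated and elongated. Both routes are switched on by the sterol regulatory element-binding proteins, which are encoded by SREBF1 and SREBF2. When cell sterol is low, the escort protein SCAP carries them from the endoplasmic reticulum to the Golgi, where they are cut and released to the nucleus. When sterol is high, INSIG1 holds SCAP back. Breast epithelial and breast cancer cells run both routes to supply membrane lipid.

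Expected counts summed to 70555229 for NT, 92980847 for CON and 77220120 for GSK484. The genes of these routes each carried between 956 and 125430 of them. All 10 epithelial markers were measured, with a summed level of 15540 (NT), 16134 (CON) and 16868 CPM (GSK484), and for GSK484 against CON 7 of the 10 were higher and 2 lower beyond counting error, beside 26.8% and 27.2% of all measured genes. Among them were the keratins KRT6A at a log2 fold of 0.46, KRT5 at 0.26 and KRT14 at -0.31, and the other lower marker was CDH1 at -0.22, named after its value was seen. The other higher markers, also named after their values were seen, were ITGB4 at 0.17, TP63 at 0.14, KRT18 at 0.04, KRT17 at 0.04 and KRT8 at 0.01. KRT8 had 426195 expected counts in GSK484 and 495598 in CON, a depth at which very small differences pass counting error. Few markers of lipid-making cells of other tissues reached 1 CPM. Of 6 adipocyte markers only FABP4 reached 1 CPM, ADIPOQ and LEP had 0 counts in every library, and the list summed to between 2.31 and 2.92 CPM. The log2 fold of FABP4 for GSK484 against CON was -0.41. Of 5 hepatocyte markers only SERPINA1 reached 1 CPM and TTR had 0 counts in every library, with the list between 49.0 and 51.4 CPM and SERPINA1 at a log2 fold of 0.07. Leukocyte, fibroblast and endothelial lists summed to between 9.96 and 12.7, 5.99 and 7.63, and 1.05 and 1.71 CPM, with PTPRC, CD3E, MPO, DCN and LUM at 0 counts in every library. For GSK484 against CON, the leukocyte marker CD14 was at -0.55 and the endothelial marker CDH5 at -0.74. The part of these markers in the differences below was not tested. In RNA from a whole culture, fewer cells of a type and less RNA per cell cannot be told apart.

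The promoters of 6 of these genes are shown. SREBF2 and INSIG1 are among the regulators of these routes. The others are the enzymes and carrier with the widest spread between libraries, which are SC5D, STARD4, DHCR7 and TM7SF2. Each promoter is the 200 bases before the transcription start, 5′ to 3′ on the gene's strand. The bases are from RefSeq on GRCh38.p14, a later build than the hg19 of the deposited tables. Capitals mark, on either strand, the sterol regulatory element TCACNCCAC, the E-box CACGTG and the CCAAT box, which is bound by the NF-Y factor.
SREBF2, chr22:41832905-41833104, plus strand: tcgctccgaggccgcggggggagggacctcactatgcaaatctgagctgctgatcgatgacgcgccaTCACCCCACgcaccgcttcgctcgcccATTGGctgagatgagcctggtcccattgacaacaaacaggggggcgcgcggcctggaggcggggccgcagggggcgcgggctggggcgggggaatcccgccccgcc
INSIG1, chr7:155297678-155297877, plus strand: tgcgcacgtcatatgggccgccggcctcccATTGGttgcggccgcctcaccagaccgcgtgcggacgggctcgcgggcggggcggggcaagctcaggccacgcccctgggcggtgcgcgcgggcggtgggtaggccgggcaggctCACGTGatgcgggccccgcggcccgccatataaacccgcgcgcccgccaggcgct
SC5D, chr11:121292571-121292770, plus strand: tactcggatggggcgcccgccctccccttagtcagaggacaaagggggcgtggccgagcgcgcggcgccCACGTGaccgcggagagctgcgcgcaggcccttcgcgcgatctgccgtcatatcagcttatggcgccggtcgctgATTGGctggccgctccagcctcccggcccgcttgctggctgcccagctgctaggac
STARD4, chr5:111512536-111512735, minus strand: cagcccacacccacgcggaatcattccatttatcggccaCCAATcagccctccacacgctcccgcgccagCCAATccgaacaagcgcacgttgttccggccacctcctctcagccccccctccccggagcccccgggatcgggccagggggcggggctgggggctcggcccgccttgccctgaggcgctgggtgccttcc
DHCR7, chr11:71448394-71448593, minus strand: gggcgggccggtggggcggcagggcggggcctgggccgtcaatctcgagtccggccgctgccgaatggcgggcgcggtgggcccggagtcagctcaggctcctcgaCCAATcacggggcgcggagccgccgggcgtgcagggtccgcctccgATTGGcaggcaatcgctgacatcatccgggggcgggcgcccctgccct
TM7SF2, chr11:65111672-65111871, plus strand: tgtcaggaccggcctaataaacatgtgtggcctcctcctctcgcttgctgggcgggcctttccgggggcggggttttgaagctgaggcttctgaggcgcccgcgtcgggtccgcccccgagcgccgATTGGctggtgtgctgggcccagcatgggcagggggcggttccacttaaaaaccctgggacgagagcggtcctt

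All 6 of these windows held a CCAAT box, and SC5D and INSIG1 also held an E-box. SREBF2 held the sterol regulatory element, written TCACCCCAC, with its first base 133 bases upstream of the start. Over windows that run from 250 bases before to 50 bases after a start, 40 windows of 30 of the 34 genes were found among 35116 windows in all. ACACA is among the 30, and no window was found for FDFT1, SQLE, FASN and ACAT2. The 35116 windows were neither limited to measured genes nor matched for base content, so the shares below do not set these genes apart from other expressed genes. The CCAAT box was in 28 of the 40 windows, or 70%, against 34.6% of all windows. The GC box GGGCGG, which Sp1 binds and which is not capitalised above, was in 35 of the 40, or 87.5%, against 45.0% of all. The E-box was in 6 of the 40, or 15%, against 7.26% of all, and belonged to INSIG1, SCAP, LSS, SC5D and ELOVL5. The element TCACNCCAC was in 1 of the 40, or 2.5%, against 1.13% of all. These searches covered both strands and exact letters only, motifs could overlap one another, and a match is a description of the letters and not a bound site.

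Levels are first given as deposited TPM, a unit of transcript abundance that is scaled to the same total in each library and accounts for transcript length, so that levels can be compared between genes. The 33 genes together took 0.337% of all TPM in NT, 0.336% in CON and 0.348% in GSK484. Their median level was 55.0 TPM in NT, 49.2 in CON and 53.0 in GSK484, beside medians over all measured genes of 11.8, 10.7 and 11.6. The middle of the set thus stood above the middle of all measured genes in each library. The highest was FDPS, which makes farnesyl diphosphate, at 649 TPM in NT, 691 in CON and 671 in GSK484. Next came FASN, the fatty acid synthase, at 555 TPM in NT, 592 in CON and 637 in GSK484. These 2 genes changed no place in the order, and both lay above at least 98.1% of measured genes in every library. FDFT1, the squalene synthase at the entry to sterol synthesis, followed at 271, 273 and 281 TPM in the order NT, CON and GSK484. At the low end were STARD4, a carrier that moves cholesterol between membranes, at 10.4, 7.37 and 8.37 TPM and FADS2, the delta-6 desaturase of polyunsaturated fatty acids, at 9.50, 8.61 and 9.47 TPM in the same order. Those 2 genes changed places, with FADS2 lower in NT and STARD4 lower in CON and GSK484.

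**Figure D1:**
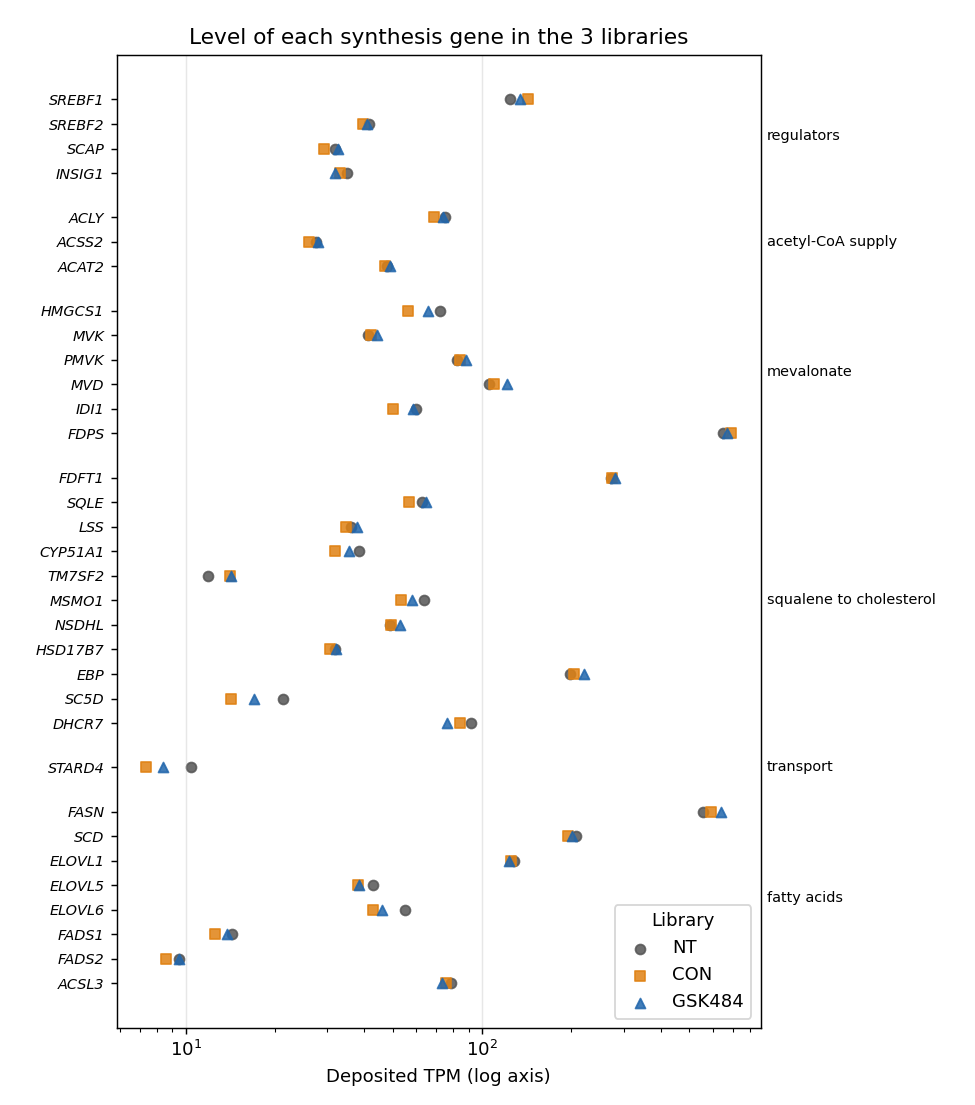
Deposited level of each of the 33 genes in TPM (horizontal log axis), grouped by role, with 1 point for each library and no error bar because each group is 1 library. FDPS and FASN stand highest in all 3 libraries at 555 TPM or more, and for SC5D and STARD4 the NT point lies above both others.

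Differences between libraries were taken from expected counts scaled to library size with TMM factors, as log2 folds with a 95% counting interval. A gene is called higher or lower where that interval leaves out no difference. Between GSK484 and CON, 6 of the 33 genes were higher and 12 lower, and 15 lay within counting error. These are 18.2% higher and 36.4% lower, beside 26.8% higher and 27.2% lower over all measured genes. None of the 33 reached a log2 fold of 0.32 in size, the second threshold used, where 9.03% of measured genes were higher and 4.48% lower by that much. All 33 also reached 10 CPM in at least 1 library. Of the 9240 genes that did, 30.6% were higher and 31.5% lower, with 666 genes higher and 134 lower by at least 0.32. Their median log2 fold was -0.0089, beside -0.0047 over all measured genes. The split of calls moved with scaling, since 15 of the 33 were higher and 9 lower when total expected counts were used without TMM, beside 34.8% and 19.1% of all measured genes under that scaling. Deposited TPM moved the median of all measured genes to 0.097 for GSK484 against CON and to -0.083 for CON against NT. TPM folds are therefore also given centred, with that median subtracted.

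Between GSK484 and NT, 13 of the 33 were higher and 11 lower, against 27.2% and 29.3% of measured genes. None was higher and 1 was lower by at least 0.32 on the log2 scale, which was SC5D, against 5.09% and 7.37% of measured genes. Of the 9240 genes of at least 10 CPM, 31.4% were higher and 33.9% lower, with 179 genes higher and 435 lower by at least 0.32. The median log2 fold of the 33 was 0.028, beside -0.0028 over all measured genes. Between CON and NT, 15 were higher and 11 lower, against 35.3% and 29.2% of measured genes. By at least 0.32 on the log2 scale 1 was higher, TM7SF2, and 2 were lower, SC5D and STARD4, against 6.91% and 14.5% of measured genes. Of the 9240 genes of at least 10 CPM, 40.6% were higher and 32.5% lower, with 268 genes higher and 1235 lower by at least 0.32. The median was 0.025, beside 0.027 over all measured genes. These 3 comparisons share libraries, so their values stand side by side and are not independent of one another.

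**Figure D2:**
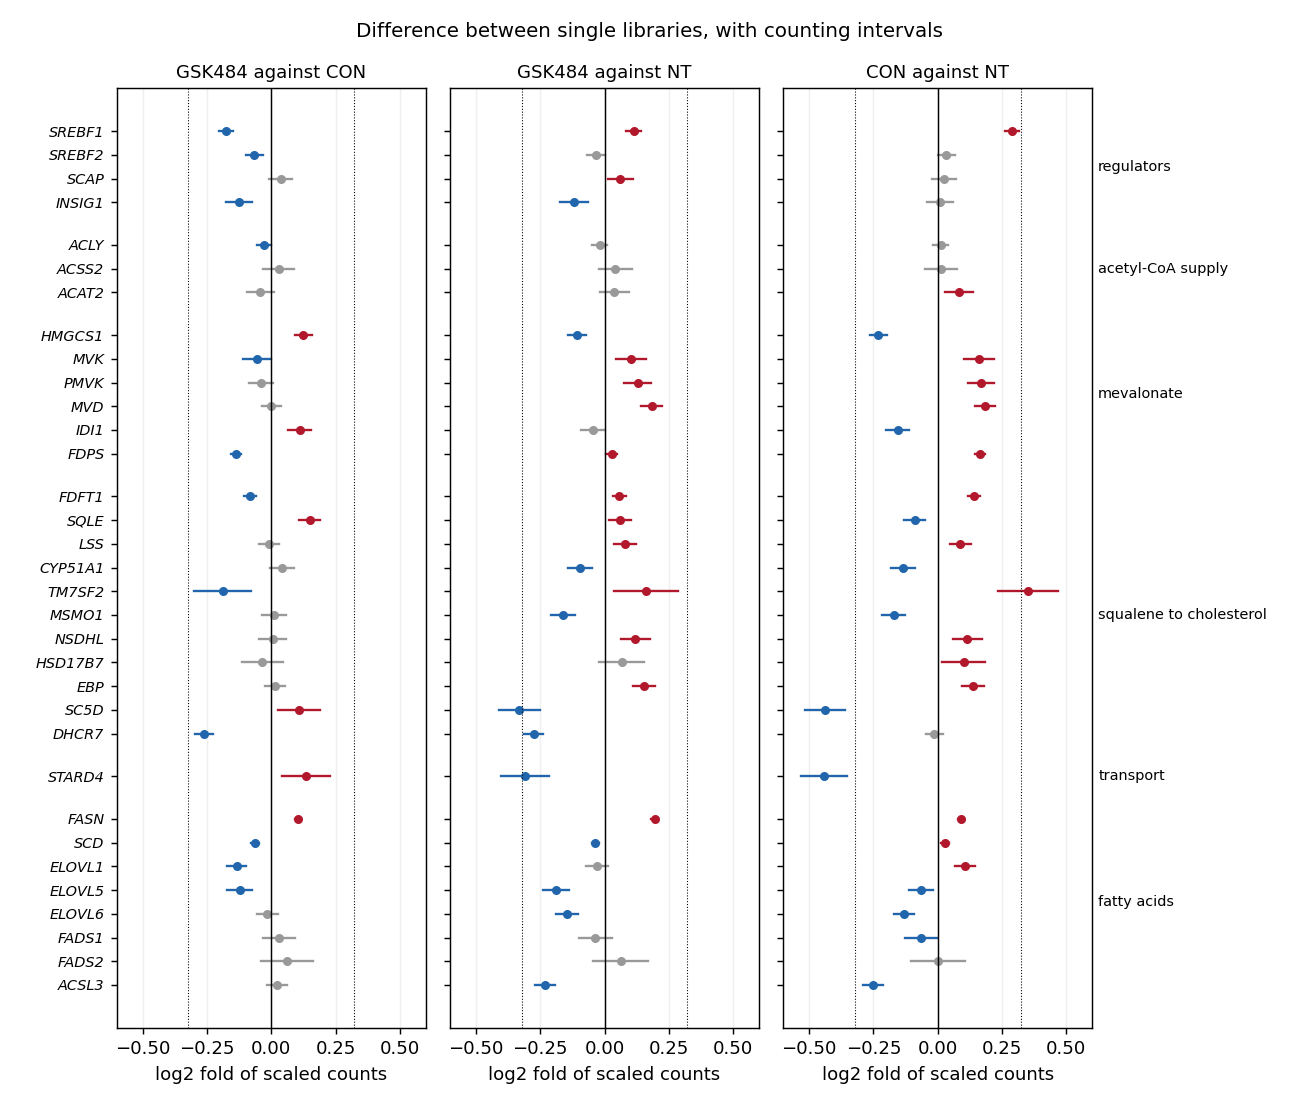
Log2 fold of TMM-scaled expected counts for each gene (horizontal axis) in the 3 comparisons, with bars for the 95% counting interval, red for higher, blue for lower and grey for within counting error; dotted lines mark 0.32 in either direction. No gene passes a dotted line for GSK484 against CON, where DHCR7 lies farthest to the left at -0.26, whereas SC5D and STARD4 pass it for CON against NT at -0.44 and TM7SF2 at 0.35.

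Of the 4 regulators, SREBF1, SREBF2 and INSIG1 were lower in GSK484 than in CON and SCAP lay within counting error. Over all measured genes 26.8% were higher and 27.2% lower in that comparison. SREBF1 encodes the factor best known for driving fatty acid genes, and its scaled level was 240 (NT), 293 (CON) and 260 CPM (GSK484). It was thus highest in CON and lowest in NT. Its log2 fold was -0.18 (-0.20 to -0.15) for GSK484 against CON and 0.29 (0.26 to 0.32) for CON against NT, the second of which was 0.18 once a trend on GC content and length, described below, was removed. For GSK484 against NT it was 0.11 (0.08 to 0.14), which became -0.0099 with that trend removed. RAI1, on the opposite strand of SREBF1 and overlapping it, was at up to 137 CPM, and since the strand setting of the counting is not known, reads of the 2 genes may be mixed.

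SREBF2, the factor best known for driving cholesterol genes, was at 171 (NT), 175 (CON) and 167 CPM (GSK484). Its 3 libraries lay close together, and its log2 fold for GSK484 against CON was -0.07 (-0.10 to -0.03) from scaled counts, -0.05 from centred TPM and -0.11 with the trend removed, but 0.05 from uncentred TPM. Its folds against NT, -0.03 for GSK484 and 0.03 for CON, were within counting error. With the trend removed they were beyond it, at -0.05 (-0.08 to -0.01) and 0.07 (0.04 to 0.11). INSIG1, the sterol-dependent brake and itself a target of these factors, was at 76.9 (NT), 77.4 (CON) and 70.9 CPM (GSK484). It was lower in GSK484 than in both other libraries, at -0.13 (-0.18 to -0.07) against CON and -0.12 (-0.17 to -0.06) against NT, the second of which was -0.08 with the trend removed. SCAP, the escort, was at 91.9, 93.6 and 96.0 CPM in the order NT, CON and GSK484. Its fold for GSK484 against CON was 0.04 (-0.0082 to 0.08), and that against NT was 0.06 (0.01 to 0.11), or -0.02 with the GC content and length trend removed.

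The 3 genes that supply acetyl-CoA or join it differed little by scaled counts. ACLY, which splits citrate into acetyl-CoA in the cytosol, was at 259 (NT), 261 (CON) and 256 CPM (GSK484). Its call as lower in GSK484 than in CON, at -0.03 (-0.06 to -0.0019), turned to 0.01 with total counts, 0.10 with TPM and 0.00049 with centred TPM, and was -0.05 with the trend removed. ACSS2, which makes acetyl-CoA from acetate, was at 50.7, 51.1 and 52.2 CPM, within counting error in every comparison by scaled counts. With the trend removed it was at 0.06 (0.0012 to 0.12) for GSK484 against CON, beyond counting error. ACAT2, the cytosolic thiolase that joins a pair of acetyl-CoA molecules, was at 67.8, 71.7 and 69.6 CPM. It was higher in CON than in NT at 0.08 (0.03 to 0.14), but at -0.01 with the trend removed and at -0.02 by TPM (0.06 when centred), and it overlaps TCP1 on the opposite strand, which was at up to 484 CPM.

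Of the 6 genes of the mevalonate steps, 2 were lower in CON than in NT and 4 were higher, beside 29.2% and 35.3% of all measured genes. For GSK484 against CON 2 were higher and 2 lower, beside 26.8% and 27.2%. HMGCS1, which makes HMG-CoA, was at 193 (NT), 165 (CON) and 180 CPM (GSK484). IDI1, which interconverts the isoprene building blocks, was at 103, 92.4 and 99.7 CPM. CON was the lowest library for both of them, with log2 folds against NT of -0.23 (-0.26 to -0.20) for HMGCS1 and -0.16 (-0.20 to -0.11) for IDI1. With the GC content and length trend removed these became 0.10 and 0.05. Against CON, GSK484 was higher at 0.12 (0.09 to 0.16) for HMGCS1, which became -0.04 with the trend removed, and at 0.11 (0.07 to 0.15) for IDI1, which became 0.02. HMGCS1 was also lower in GSK484 than in NT at -0.11 (-0.14 to -0.07), or 0.04 with the trend removed.

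MVK and PMVK, the kinases that phosphorylate mevalonate in turn, were at 59.7 and 76.2 CPM in NT, 66.7 and 85.7 in CON, and 64.1 and 83.4 in GSK484. MVD, the decarboxylase that follows them, was at 128 CPM in NT and 145 in both CON and GSK484. NT was the lowest library for all 3. Their log2 folds for CON against NT were 0.16 for MVK, 0.17 for PMVK and 0.18 for MVD, but 0.02, -0.05 and -0.01 once the trend was removed. For GSK484 against NT they were 0.10, 0.13 and 0.18, and with the trend removed 0.0028, -0.01 and 0.01. Against CON, GSK484 was called lower for MVK alone, at -0.06 (-0.11 to -0.0026) but at -0.0052, within counting error, with the trend removed and at 0.07 by TPM (-0.03 when centred), and PMVK and MVD were within counting error at -0.04 and 0.00031. With the trend removed PMVK was at 0.05 (0.0045 to 0.10) and MVD at 0.04 (0.0054 to 0.08), both beyond counting error. FDPS was at 452 (NT), 507 (CON) and 461 CPM (GSK484), with CON the highest library. It was lower in GSK484 than in CON at -0.14 (-0.16 to -0.12), and -0.0069 with the trend removed. Against NT it was 0.17 for CON and 0.03 for GSK484, which turned to -0.07 and -0.10 with the trend removed.

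From squalene to cholesterol, 11 enzymes were measured, of which 2 were higher, 3 lower and 6 within counting error for GSK484 against CON, beside 26.8% higher and 27.2% lower of all measured genes. The farthest from no difference among all 33 genes in that comparison was DHCR7, which converts 7-dehydrocholesterol to cholesterol. It is described in full although it did not reach that second threshold, so it was chosen after its values were seen, as were SQLE and FASN. DHCR7 was at 183 (NT), 181 (CON) and 151 CPM (GSK484), which were 91.7, 84.2 and 75.9 TPM. NT and CON lay together by scaled counts, with a log2 fold of -0.01 (-0.05 to 0.02), and GSK484 lay below both. With the trend removed, CON was below NT at -0.09 (-0.13 to -0.06), and by uncentred TPM at -0.12. The log2 fold of GSK484 was -0.26 (-0.30 to -0.23) against CON and -0.28 (-0.31 to -0.24) against NT, or 1.20-fold and 1.21-fold lower. It stayed negative by every measure used, at -0.24 and -0.35 with the trend removed and at -0.15 and -0.27 by TPM. Of the 9240 genes of at least 10 CPM, 2.99% had a lower fold for GSK484 against CON and 7.19% for GSK484 against NT.

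SC5D, which makes the 7-dehydrocholesterol that DHCR7 uses, was at 37.9 (NT), 28.0 (CON) and 30.2 CPM (GSK484). NT was the highest library for SC5D and the other 2 lay closer together. The log2 fold was -0.44 (-0.52 to -0.36) for CON against NT and -0.33 (-0.41 to -0.25) for GSK484 against NT, or 1.35-fold and 1.26-fold lower. With the trend removed, these were -0.12 and -0.19. GSK484 was above CON at 0.11 (0.03 to 0.19), which turned to -0.06 with the trend removed.

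SQLE, the squalene epoxidase that takes the first oxygen-dependent step, was at 119 (NT), 112 (CON) and 124 CPM (GSK484). It was lowest in CON and highest in GSK484. The log2 fold was 0.15 (0.11 to 0.19) for GSK484 against CON, 0.06 (0.02 to 0.10) for GSK484 against NT and -0.09 (-0.13 to -0.05) for CON against NT, with values of 0.18, 0.08 and -0.09 once the trend was removed. TM7SF2, a sterol C14 reductase, was at 13.4 (NT), 17.1 (CON) and 15.0 CPM (GSK484), or 11.9, 14.1 and 14.3 TPM. By scaled counts CON was the highest library, and by TPM CON and GSK484 lay together above NT. The log2 fold of TM7SF2 was 0.35 (0.23 to 0.47) for CON against NT, 1.27-fold, and 0.14 with the trend removed. It was 0.16 (0.04 to 0.29) for GSK484 against NT, or -0.02 with the trend removed. It was -0.19 (-0.30 to -0.08) for GSK484 against CON, or 0.02 by TPM and -0.08 by centred TPM. TM7SF2 overlaps VPS51 on the same strand, which was at up to 68.1 CPM, so the assignment of reads between them is uncertain.

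The other 7 enzymes of this stretch differed at most 1.13-fold by scaled counts, for MSMO1 in CON against NT. FDFT1 was at 352 (NT), 388 (CON) and 366 CPM (GSK484), higher than NT in both treated libraries by 0.14 for CON and 0.06 for GSK484, or 0.04 and 0.03 with the trend removed. It was lower in GSK484 than in CON at -0.08 and at -0.05 by centred TPM, but at 0.04 by uncentred TPM and -0.0019, within counting error, with the trend removed. LSS, which closes the squalene epoxide ring to lanosterol, was at 113, 120 and 119 CPM, 0.09 and 0.08 above NT in CON and GSK484, where the CON value was -0.05 by TPM (0.03 when centred) and the GSK484 value 0.04, within counting error, with the trend removed. NSDHL, an enzyme of C4 demethylation, was at 63.5, 68.8 and 69.0 CPM, and EBP, the sterol isomerase, at 112, 123 and 125 CPM. Both were higher than NT in CON and GSK484 by 0.12 and 0.12 for NSDHL and 0.14 and 0.15 for EBP, where the CON value of EBP was -0.11 with the trend removed. With the trend removed NSDHL in CON was at 0.0046 and EBP in GSK484 at 0.04, both within counting error, and NSDHL in GSK484 at 0.07.

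CYP51A1, the lanosterol demethylase, was at 96.8, 88.1 and 90.6 CPM and MSMO1, the C4-methyl sterol oxidase, at 101, 89.8 and 90.4 CPM in the order NT, CON and GSK484. NT was the highest library for both. Their log2 folds against NT were -0.14 and -0.17 for CON and -0.10 and -0.16 for GSK484. With the trend removed, CYP51A1 was at 0.12 and 0.03 and MSMO1 at 0.15 and -0.03. HSD17B7, a 3-ketosteroid reductase of the same stretch, was at 28.8, 30.9 and 30.2 CPM, higher in CON than in NT at 0.10 and at 0.18 with the trend removed, but at -0.05 by TPM (0.03 when centred). All of LSS, CYP51A1, MSMO1, NSDHL, HSD17B7 and EBP lay within counting error for GSK484 against CON by scaled counts. With the trend removed 4 of them lay beyond it, as did 51.1% of all measured genes. These 4 were EBP at 0.17 (0.13 to 0.21), NSDHL at 0.08 (0.03 to 0.13), MSMO1 at -0.16 (-0.20 to -0.11) and CYP51A1 at -0.07 (-0.12 to -0.03).

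STARD4 was at 28.8 (NT), 21.2 (CON) and 23.3 CPM (GSK484), with NT above both others. The log2 fold was -0.44 (-0.53 to -0.35) for CON against NT, 1.36-fold lower, and -0.31 (-0.40 to -0.22) for GSK484 against NT. STARD4 had the lowest GC content of the 33 genes at 34.2%, and with the trend removed these values became 0.10 and -0.09. GSK484 was above CON at 0.13 (0.04 to 0.23), which turned to -0.18 with the trend removed. The position of STARD4 in CON relative to each of the other libraries therefore depended on whether the trend was kept.

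Among 8 fatty acid genes, 1 was higher, 3 lower and 4 within counting error for GSK484 against CON, beside 26.8% higher and 27.2% lower of all measured genes. FASN was the higher one, at 1291 (NT), 1375 (CON) and 1478 CPM (GSK484), and its expected counts of 92015, 125430 and 115103 made it the most deeply counted of the set. The log2 fold of FASN was 0.10 (0.09 to 0.12) for GSK484 against CON, 0.20 (0.18 to 0.21) for GSK484 against NT and 0.09 (0.08 to 0.10) for CON against NT. With the trend removed these were 0.07, 0.06 and 0.0019. By centred TPM they were 0.0083, 0.20 and 0.18, while the deposited effective length of FASN was 2733 bases in NT, 2515 in CON and 2715 in GSK484. The place of CON between the other libraries thus differed between measures of FASN. SCD, the stearoyl-CoA desaturase that makes oleate and palmitoleate, was at 913 (NT), 931 (CON) and 891 CPM (GSK484). By scaled counts its differences were under 0.07 in size. For GSK484 against CON it was at -0.06 (-0.10 with the trend removed, 0.05 by TPM and -0.05 by centred TPM). For GSK484 against NT it was at -0.04 (0.04 with the trend removed). For CON against NT it was at 0.03, but at 0.15 (0.14 to 0.17), beyond counting error, with the trend removed. The same comparison gave -0.01 with total counts, -0.09 by TPM and -0.0091 by centred TPM.

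The elongases add carbons to existing fatty acids. ELOVL1, which acts on very long saturated chains, was at 125 (NT), 135 (CON) and 123 CPM (GSK484). GSK484 was lower than CON at -0.14 (-0.17 to -0.10), or -0.04 with the trend removed, -0.03 by TPM and -0.13 by centred TPM. CON was above NT at 0.11 (0.07 to 0.15), which turned to -0.08 with the trend removed and -0.03 by TPM (0.05 when centred). ELOVL5, which acts on polyunsaturated chains, was at 89.5, 85.5 and 78.5 CPM. It was lowest in GSK484, at -0.12 (-0.17 to -0.07) against CON and at -0.19 (-0.24 to -0.14) against NT, or -0.21 and -0.08 with the trend removed. By TPM the value against CON was 0.0026, or -0.09 when centred. CON against NT was -0.07 for ELOVL5, or 0.15 with the trend removed. ELOVL6, which acts on palmitate, was at 130, 119 and 117 CPM, with both treated libraries below NT at -0.13 for CON and -0.15 for GSK484, which became 0.14 and, within counting error, -0.02 with the trend removed. For GSK484 against CON, ELOVL6 was within counting error at -0.02, but at -0.14 (-0.18 to -0.10) with the trend removed.

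The desaturases of polyunsaturated fatty acids were nearly level. FADS1 was at 51.9 (NT), 49.5 (CON) and 50.6 CPM (GSK484), and its single call was CON below NT at -0.07 (-0.13 to -0.0027), which was -0.00015 and within counting error with the trend removed. FADS2 was at 18.4, 18.5 and 19.3 CPM, within counting error in all 3 comparisons. FADS1 and FADS2 overlap on opposite strands and FADS2 also overlaps FEN1 on the same strand, at up to 216 CPM. ACSL3, a long-chain acyl-CoA synthetase, was at 155 (NT), 130 (CON) and 132 CPM (GSK484), with NT above both. Its log2 fold against NT was -0.25 (-0.29 to -0.21) for CON and -0.23 (-0.27 to -0.19) for GSK484, the second of which was -0.08 with the trend removed. By TPM these were -0.06 and -0.10, while the deposited effective length of ACSL3 was 2311 bases in NT, 1860 in CON and 2105 in GSK484. Of the genes of at least 10 CPM, 1.53% had a lower ratio of effective length between CON and NT. For CON against NT the value turned to 0.09 with the trend removed and 0.03 by centred TPM. For GSK484 against CON, ACSL3 was within counting error at 0.02, but at -0.16 (-0.20 to -0.12) with the trend removed.

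GC content moved with these differences. In 20 bins of GC content over genes of at least 10 CPM, the lowest bin had a median log2 fold of -0.40 for CON against NT, -0.19 for GSK484 against NT and 0.22 for GSK484 against CON, and the highest bin had 0.17, 0.17 and -0.0040. By their medians, the synthesis genes lay near the same course in the comparisons against NT. For CON against NT, the 17 genes at or below the set's median GC content of 50.5% had a median of -0.09 and the 16 above it 0.10, beside -0.09 and 0.11 over all genes of at least 10 CPM in the same ranges. For GSK484 against NT these medians were -0.10 and 0.07, beside -0.08 and 0.08. For GSK484 against CON they were 0.0098 and -0.03, beside 0.03 and -0.03. With the trend removed, the median of the set in that comparison was -0.04, beside 0.0022 over all measured genes. By that measure 7 were higher and 15 lower beyond counting error, beside 26.2% and 24.9% of all measured genes. The part of GC content in any single difference was not tested, and the trend-removed values above subtract a smooth course on GC content and effective length fitted to 8875 protein-coding genes.

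**Figure D3:**
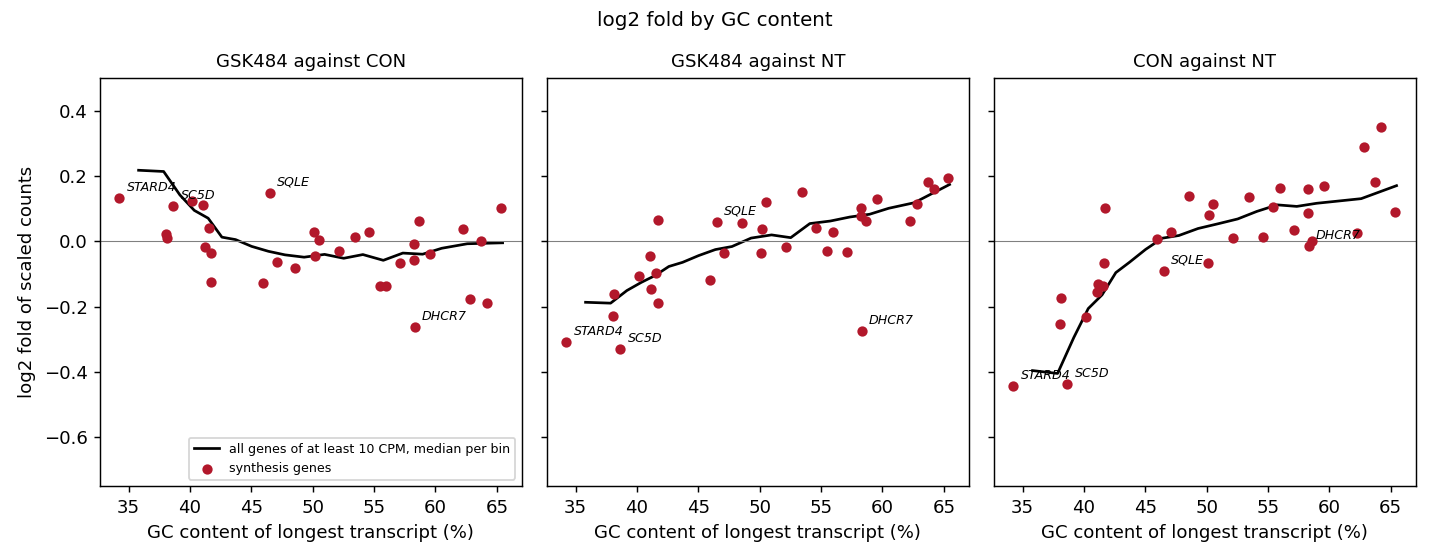
Log2 fold of TMM-scaled counts (vertical axis) against GC content of the longest transcript (horizontal axis) for the 33 genes (red points) and, as a black line, the median of all genes of at least 10 CPM in 20 bins of GC content. For CON against NT most red points follow the line from about -0.40 at low to 0.17 at high GC content, and for GSK484 against CON and against NT DHCR7 lies well below it.

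Some genes kept a direction under every scaling and measure tried, uncentred TPM included, and beyond counting error with the trend removed. Their sizes were not kept, as given above for FASN and ELOVL1. The share of all measured genes that met this rule was not taken, so whether the set differs from other genes here is not known. For GSK484 against CON the genes that met it were SQLE and FASN of the 6 higher and SREBF1, INSIG1, DHCR7 and ELOVL1 of the 12 lower. For GSK484 against NT they were FDFT1, SQLE, NSDHL and FASN of the 13 higher and INSIG1, SC5D, DHCR7, ELOVL5 and ACSL3 of the 11 lower. For CON against NT they were SREBF1, FDFT1 and TM7SF2 of the 15 higher and SQLE and SC5D of the 11 lower.

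**Figure D4:**
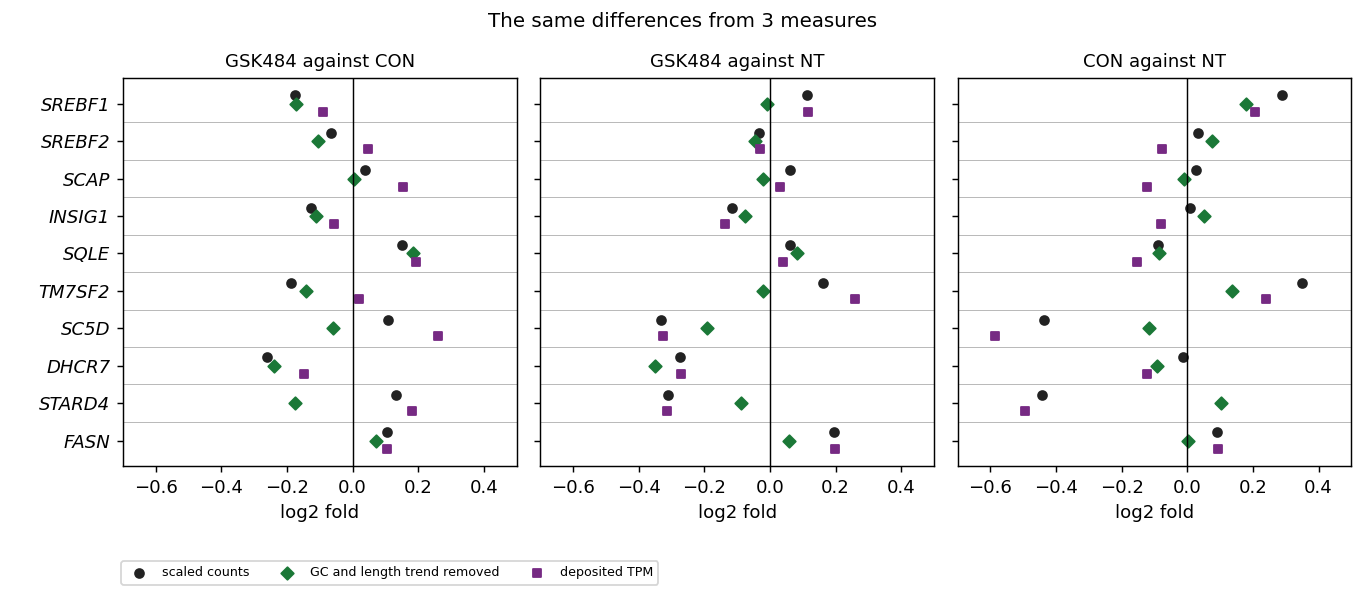
Log2 fold of 10 of the genes (horizontal axis) by scaled counts (black circles), with the GC content and length trend removed (green diamonds) and by deposited TPM (purple squares), without error bars. DHCR7 lies left of 0 by all 3 measures for GSK484 against CON and against NT, whereas STARD4, SC5D, SREBF2 and TM7SF2 change side for GSK484 against CON.

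The rest of the sterol and lipid pathways is given as counts for GSK484 against CON, beside the 26.8% higher and 27.2% lower of all measured genes. Of 9 other genes of sterol sensing, 1 was higher and 1 lower: ERLIN1, part of the machinery that removes sterol-regulated proteins from the endoplasmic reticulum, at 0.09 (0.06 with the trend removed), and RNF139, a ubiquitin ligase of that membrane, at -0.12. Of 9 genes of sterol uptake, release and storage, 2 were higher and 6 lower, with a median of -0.08. The lower ones included VLDLR, a lipoprotein receptor, at -0.39 (-0.60 to -0.18) and LIPA, the lysosomal lipase that frees cholesterol from its esters, at -0.23 (-0.28 to -0.19). SOAT1, which esterifies cholesterol for storage, was higher at 0.22 (0.13 to 0.31) and at 0.05 with the trend removed. Of 5 measured genes of the oxysterol-sensing LXR receptors and their targets, 0 were higher and 1 was lower, LPCAT3, a phospholipid acyltransferase, at -0.20 (-0.26 to -0.13).

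LIPA was at 112 (NT), 99.1 (CON) and 84.3 CPM (GSK484), so GSK484 was the lowest library for LIPA. Of 9 measured genes that use the isoprenoids made by FDPS and its neighbours, 3 were higher and 2 lower. PGGT1B, a geranylgeranyl transferase subunit, was at 0.42 (0.27 to 0.56), or 0.13 with the trend removed, and GGPS1, which makes geranylgeranyl diphosphate, at 0.32 (0.23 to 0.41), while PDSS2, of coenzyme Q side-chain synthesis, was at -0.22 (-0.34 to -0.10). Of 16 other measured genes of fatty acid synthesis and activation, 5 were higher and 5 lower. The acyl-CoA synthetases of that list went both ways, with ACSL4 at 0.59 (0.51 to 0.66) and ACSL5 at -0.57 (-0.77 to -0.37), and the elongase ELOVL4 was at 0.33 (0.21 to 0.45). With the trend removed ACSL4 was at 0.33, ACSL5 at -0.59 and ELOVL4 at 0.14. ACSL4, which prefers arachidonate, was at 54.8 (NT), 28.9 (CON) and 43.5 CPM (GSK484), so CON was the lowest library and GSK484 was below NT at -0.33 (-0.40 to -0.27), or -0.12 with the trend removed.

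Of 9 measured genes of glycerolipid synthesis 3 were higher and 3 lower. DGAT1, which makes triglyceride, was at -0.38 (-0.47 to -0.29), GPAM, the first acyltransferase of that route, at 0.17 (0.04 to 0.30) but -0.02 with the trend removed, and LPIN3, a phosphatidate phosphatase, at 0.12 (0.03 to 0.21). Of 16 genes of fatty acid oxidation 3 were higher and 5 lower. ACADM, the medium-chain dehydrogenase, was at 0.34 (0.26 to 0.43) and CPT2, which passes acyl groups into mitochondria, at -0.25 (-0.33 to -0.17), or -0.45 with the trend removed. Each of these lists except that of LXR had calls in both directions.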

How the data were processed

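Per the labels' protocols, total RNA was taken up in TRIzol and sequenced as paired reads of 125 bases from TruSeq stranded total RNA libraries. The authors deposited 1 gene table per library. Per the file headers it holds expected counts, which are estimated reads per gene without normalization and can be fractions. Its deposited TPM values account for effective length and sum to the same total in each library, and its FPKM values, per the file headers, were not used. RSEM and hg19 are named in the submitters' processing notes. RSEM's version, the aligner, the annotation release and the strand setting: not given in the sources used here.

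Expected counts were scaled to CPM with TMM factors of 1.01 in NT, 0.98 in CON and 1.01 in GSK484 (edgeR 4.0.16, R 4.3.3). Log2 folds used a prior count of 0.5. Their 95% intervals are exact conditional binomial (Clopper-Pearson) intervals on rounded counts (scipy 1.17.1), cover counting error only and do not separate PCR copies. The code was tested on simulated data. The alternatives were total counts, DESeq2 1.42.0 size factors, no filter, a minimum of 10 CPM, a prior count of 2, log2(TPM + 0.1), whole counts only, and removal of a natural spline trend on GC content and effective length. TPM centred on the median of measured genes was added after seeing the data.

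The genes and lists were chosen with earlier results of these data known. Full values were to be given for the 4 regulators and for genes beyond counting error by at least 0.32 on the log2 scale. From each other list up to 3 genes with the largest differences for GSK484 against CON beyond counting error were to be named. One gene of the fatty acid oxidation list is not reported here. Symbols were matched by gene ID with a gene name table and GENCODE 29, an annotation of another build used for names, gene types, GC content and overlaps. For 19 of the 33 genes the counts were within 0.005 of whole numbers in every library.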

Additional observations from a re-analysis of the deposited data

How the results depend on the processing

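No paired analysis was possible because each group is 1 library. Without replicates, no setting speaks to variation between cultures. Where a setting below turned a direction, the cause was not tested beyond what the setting itself subtracts or rescales.

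With whole counts only, which leaves 19 genes, the calls were 10 for GSK484 against CON (3 higher, 7 lower), 16 for GSK484 against NT (9 higher, 7 lower), and 14 for CON against NT (8 higher, 6 lower). Over all measured genes, not limited to whole counts, 26.8% were higher and 27.2% lower for GSK484 against CON. For GSK484 against NT these shares were 27.2% and 29.3%, and for CON against NT 35.3% and 29.2%. With total counts 15 were higher and 9 lower for GSK484 against CON. With the GC content and length trend removed, 8 were higher and 8 lower for GSK484 against NT, 17 and 6 for CON against NT, and 7 and 15 for GSK484 against CON, beside 20.7% and 25.2%, 27.2% and 25.4%, and 26.2% and 24.9% of measured genes. By TPM the median log2 fold was 0.098 for GSK484 against CON and -0.081 for CON against NT, beside 0.097 and -0.083 over all measured genes. DESeq2 size factors and a prior count of 2 turned no direction.

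For GSK484 against CON, TPM turned SREBF2 to 0.047, ACLY to 0.098, MVK to 0.070, FDFT1 to 0.042, TM7SF2 to 0.018, SCD to 0.048 and ELOVL5 to 0.0026. All of those flips but that of ACLY were absent by centred TPM, which subtracts the median over all measured genes. ACLY also turned to 0.011 with total counts and 0.00049 by centred TPM. Removing the trend turned HMGCS1 to -0.038, SC5D to -0.059 and STARD4 to -0.18.

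For GSK484 against NT, removing the trend turned SREBF1 to -0.0099, SCAP to -0.022, HMGCS1 to 0.045, PMVK to -0.012, FDPS to -0.097, CYP51A1 to 0.029, TM7SF2 to -0.020 and SCD to 0.038.

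For CON against NT, it turned ACAT2 to -0.012, HMGCS1 to 0.099, PMVK to -0.048, MVD to -0.011, IDI1 to 0.053, FDPS to -0.074, CYP51A1 to 0.12, MSMO1 to 0.15, EBP to -0.11, STARD4 to 0.10, ELOVL1 to -0.076, ELOVL5 to 0.15, ELOVL6 to 0.14 and ACSL3 to 0.090. TPM turned ACAT2 to -0.022, LSS to -0.050, HSD17B7 to -0.051, SCD to -0.092 and ELOVL1 to -0.034, of which only SCD was also turned by centred TPM. Centred TPM turned ACSL3 to 0.026 and SCD to -0.0091, and total counts turned SCD to -0.014.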
